A study of Mus musculus with 1 sample.

Results

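Krt7, Krt8, Krt18, Krt19, Cdh1, Epcam, Muc1, Cldn3, Cldn4 and Cldn7 are 10 genes of epithelial keratins, cell adhesion and tight junctions. They were taken by symbol, with no threshold on their values, from the 32285 genes listed in the count table, and each symbol matched 1 gene. Earlier results of these data were known when they were chosen. They were compared in acinar, duct-like and mesothelial cells of the normal mouse pancreas. The library came from Scap f/f mice, which carry floxed Scap alleles without a Cre recombinase and so have normal Scap. The mice were 2 weeks old. Pancreata of 5 to 6 animals, with males and females in equal number, were pooled into 1 suspension, depleted of dead cells and run as 1 droplet library of 3′ transcript ends. The library made from Scap Δpanc mice was not analysed here. Because all cells came from 1 pool and 1 library, no test between cell classes was possible. Every interval below is an exact 95% interval (Poisson for levels, Clopper-Pearson for shares) that covers counting error only, and differences between mice cannot be seen.

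Keratins are intermediate filament proteins that assemble as obligate pairs of a type II chain (Krt7, Krt8) and a type I chain (Krt18, Krt19). Krt8 and Krt18 form the basic pair of simple epithelia, and Krt7 and Krt19 are widely used as markers of ductal and other lining epithelia, mesothelium included. Cdh1 (E-cadherin) joins neighbouring epithelial cells at adherens junctions, Epcam is an adhesion molecule that binds Cldn7, Muc1 is a transmembrane mucin of the apical surface, and the claudins Cldn3, Cldn4 and Cldn7 are strand proteins of tight junctions. In the pancreas, acinar cells make digestive enzymes, ducts carry the juice, and mesothelium covers the surface of the organ.

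In GENCODE M21 (GRCm38), Krt7 lies at chr15:101411043-101430313 on the plus strand, Krt8 at chr15:101996698-102004482 on the minus strand and Krt18 at chr15:102028180-102032027 on the plus strand. Krt8 and Krt18 are 23697 bp apart and transcribed away from each other, and 566384 bp separate Krt7 from Krt8. Krt19 lies at chr11:100140810-100148665 (minus), Cldn7 at chr11:69964779-69967885 (plus), Cdh1 at chr8:106603351-106670246 (plus), Epcam at chr17:87635979-87651129 (plus) and Muc1 at chr3:89229057-89233381 (plus). Cldn4 at chr5:134945119-134946934 (minus) and Cldn3 at chr5:134986214-134987472 (plus) are neighbours, with 39279 bp between them.

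The 250 bases before the RefSeq start site are printed for 6 of the genes because of their levels, given below. Krt8 and Krt18 were both highest in duct-like cells, and Krt7 was not. Cldn3 and Cldn4 were also both highest there, but in acinar cells Cldn4 was close to the floor and Cldn3 was not. Epcam had a large drop from duct-like to mesothelial cells. The bases are written 5′ to 3′ on the strand of the gene, from GRCm38.p6, at chr15:101412153-101412402 (+), chr15:102004343-102004592 (-), chr15:102027966-102028215 (+), chr17:87635729-87635978 (+), chr5:134985964-134986213 (+) and chr5:134946935-134947184 (-). Capitals mark the letters CACCTG or CAGGTG, an E2-box, and TGACTCA or TGAGTCA, an AP-1 motif.
Krt7: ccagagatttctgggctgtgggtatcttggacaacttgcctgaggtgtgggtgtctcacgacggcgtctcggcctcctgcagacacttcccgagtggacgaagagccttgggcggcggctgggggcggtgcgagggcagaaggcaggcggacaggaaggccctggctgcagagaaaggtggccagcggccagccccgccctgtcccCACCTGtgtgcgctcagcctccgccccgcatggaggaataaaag
Krt8: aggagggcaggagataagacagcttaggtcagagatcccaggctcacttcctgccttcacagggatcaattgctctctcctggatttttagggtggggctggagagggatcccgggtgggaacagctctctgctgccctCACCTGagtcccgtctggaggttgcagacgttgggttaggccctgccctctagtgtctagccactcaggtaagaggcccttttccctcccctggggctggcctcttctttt
Krt18: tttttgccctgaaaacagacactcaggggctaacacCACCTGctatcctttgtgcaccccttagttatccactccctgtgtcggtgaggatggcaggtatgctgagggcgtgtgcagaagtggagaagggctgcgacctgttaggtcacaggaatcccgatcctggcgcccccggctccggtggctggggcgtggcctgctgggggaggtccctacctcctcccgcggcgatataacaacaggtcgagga
Epcam: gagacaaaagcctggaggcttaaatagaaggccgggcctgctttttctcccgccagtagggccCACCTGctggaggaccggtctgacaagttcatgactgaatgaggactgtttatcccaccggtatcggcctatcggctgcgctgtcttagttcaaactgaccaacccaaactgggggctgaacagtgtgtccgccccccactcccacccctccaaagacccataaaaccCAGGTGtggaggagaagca
Cldn3: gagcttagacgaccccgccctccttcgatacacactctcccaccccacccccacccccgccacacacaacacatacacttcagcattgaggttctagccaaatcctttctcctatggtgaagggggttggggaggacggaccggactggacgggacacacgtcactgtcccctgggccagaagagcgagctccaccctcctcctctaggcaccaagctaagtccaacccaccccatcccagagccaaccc
Cldn4: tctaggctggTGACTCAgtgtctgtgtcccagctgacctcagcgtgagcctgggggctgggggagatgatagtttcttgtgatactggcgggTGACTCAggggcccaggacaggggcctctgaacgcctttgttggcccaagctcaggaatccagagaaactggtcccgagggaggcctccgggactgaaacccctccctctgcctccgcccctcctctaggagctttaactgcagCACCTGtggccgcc

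RefSeq windows were held for 8 of the 10 genes, all but Krt19 and Cdh1. The E2-box letters, which are bound by Zeb and Snail family repressors, stood in the window of 7 of these 8 genes (Krt7, Krt8, Krt18, Epcam, Muc1, Cldn4 and, in 1 of its windows, Cldn7), against 17.2% of all 32851 windows of the same length. Cldn3 had none. Epcam, Muc1 and that window of Cldn7 had 2 copies each. Those of Epcam began 187 and 19 bases before the start site. The AP-1 letters stood in 4.46% of all windows and, among these genes, in that of Cldn4, which held 2 copies. Both strands were searched for 4 further motifs. The GC box (GGGCGG or CCGCCC) was found in 6 of the 8 genes and 32.7% of all windows. The letters TATAAA or TTTATA were found in 1 (Muc1) and 12.4%, CCAAT or ATTGG in 1 (Muc1) and 33.8%, and GGAAG or CTTCC in 3 (Krt7, Krt8 and Cldn7) and 64.1%. A gene was counted when any of its windows held the letters, while the shares are of single windows, so the units differ. The windows of these genes had 51.2 to 66.0% G and C, and the median of all windows was 52.4%. The motifs were chosen with the levels in view, and a match of letters is a description that says nothing of binding.

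Of 11789 barcodes with 51540177 UMIs (counted transcript molecules), 10947 held more than 800 and fewer than 100000 UMIs with under 15% from mitochondrial genes, with a median of 2650 UMIs. Cells were assigned by markers that included none of the 10 genes. Acinar cells (864, median 5128 UMIs) had at least 20% of their UMIs from 18 acinar enzyme genes, duct-like cells (74, median 12916 UMIs) had at least 4 of 12 duct markers, and mesothelial cells (404, median 4612 UMIs) at least 4 of 8 mesothelial markers. Barcodes past several gates (922) were left out of every class. Near the limits lay 209 barcodes with 15 to 25% acinar enzymes and 159 with 3 or 4 mesothelial markers. By construction of the gates, Sox9 was at 1224 CPM (the UMIs of a gene divided by all UMIs of the class and scaled to 1000000) in duct-like cells and 92.7 CPM in acinar cells, and Upk3b at 1332 CPM in mesothelial cells and 14.1 CPM in duct-like cells. Of markers outside the gates, the acinar transcription factors Rbpjl and Bhlha15 were at 224 and 61.8 CPM in acinar cells, 76.6 and 8.58 CPM in duct-like cells and 8.14 and 0.775 CPM in mesothelial cells. The duct-like and mesothelial labels had no such check. The mesothelial cells also had the collagen gene Col1a1 at 5780 CPM and the matrix gene Dcn at 5495 CPM. Fibroblasts had Col1a1 at 11928 CPM and Dcn at 5389 CPM, so mesothelial Dcn was not below theirs. They were gated on Col1a1, Col3a1, Dcn, Lum and Pdgfra, with a further limit on Lum and Pdgfra alone. Levels of these genes in fibroblasts, and differences from mesothelial cells, therefore depend on the gates. Enzyme UMIs made up 41.5% of the counts of acinar cells, 7.06% of duct-like cells and 0.781% of mesothelial cells. Fibroblasts (5569, median 2717 UMIs), which have no such enzymes, still had 1.01%.

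Duct-like cells had the highest summed level of the 10 genes, at 4845 CPM (interval 4739 to 4953), against 1278 CPM (1235 to 1322) in mesothelial cells and 692 CPM (676 to 709) in acinar cells. Divided by the non-enzyme UMIs alone, these sums were 5214 CPM (5099 to 5330), 1288 CPM (1244 to 1333) and 1183 CPM (1155 to 1211). Fibroblasts had 33.9 CPM (31.4 to 36.6) and immune cells (1715, median 1684 UMIs) 53.5 CPM (46.6 to 61.1). These last levels serve as the background, since free RNA in droplets gives counts in cells that do not express a gene. Fibroblasts and immune cells were not alike in every gene. Fibroblast over immune ratios were 0.366 (0.243 to 0.558) for Cdh1 and 0.394 (0.252 to 0.625) for Epcam. Those of Krt8 and Krt18 were 0.564 (0.402 to 0.804) and 0.623 (0.411 to 0.969). Whether some immune cells express these genes was not tested. The classes differed in which genes carried the sum: all 10 were present in duct-like cells, acinar cells held a low level of 8 of them, and mesothelial cells held keratins with almost no adhesion gene, mucin or claudin of the set.

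**Figure D1:**
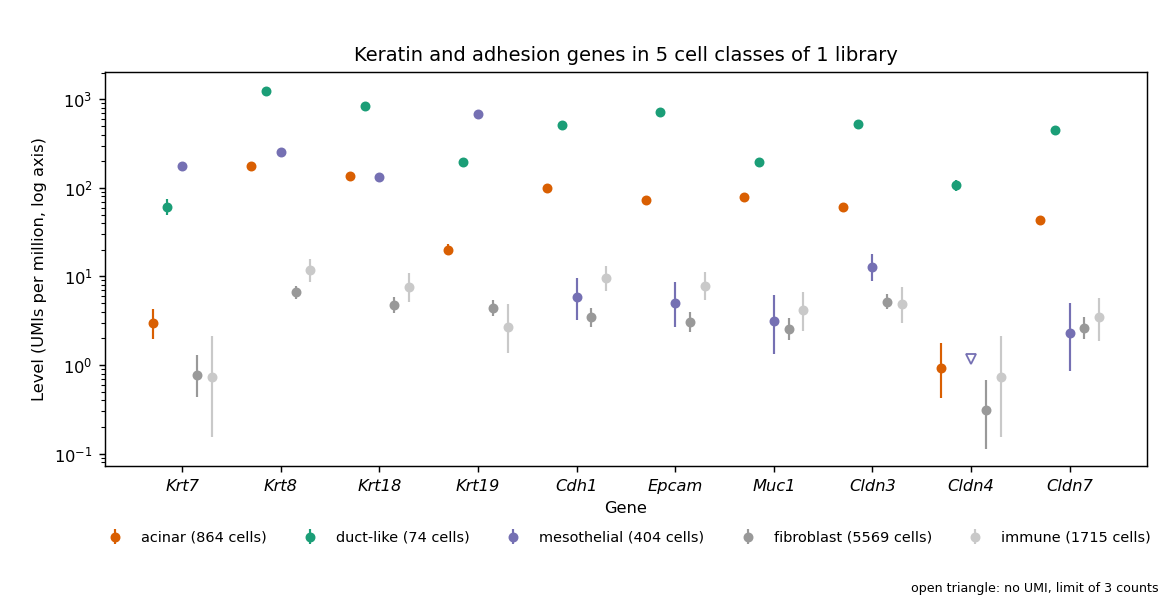
Level of each gene in CPM (log axis) in 5 cell classes, with points for the level and bars for the exact 95% Poisson interval, which covers counting error only; the open triangle marks a gene with no UMI, at the limit that a count of 0 allows. Duct-like cells are highest for 8 genes and mesothelial cells for Krt7 and Krt19, and the mesothelial points of Cdh1, Epcam, Muc1 and Cldn7 lie among those of fibroblasts and immune cells.

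Krt8, the type II partner of simple epithelia, was at 1230 CPM (1176 to 1285) in duct-like cells, 252 CPM (233 to 272) in mesothelial cells and 175 CPM (167 to 183) in acinar cells. Its type I partner Krt18 was at 848 CPM (804 to 894) in duct-like cells, 136 CPM (129 to 143) in acinar cells and 133 CPM (120 to 148) in mesothelial cells. The intervals of Krt18 in acinar and mesothelial cells overlapped, so their order was not resolved, while duct-like cells stood well above both. Fibroblasts had 6.65 CPM of Krt8 and 4.74 CPM of Krt18.

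Krt19, a type I keratin, had another order. It was at 689 CPM (657 to 721) in mesothelial cells, 194 CPM (174 to 217) in duct-like cells and 20.1 CPM (17.4 to 23.1) in acinar cells. Krt7, a type II keratin, followed the same order, with 175 CPM (159 to 192) in mesothelial, 61.3 CPM (49.9 to 74.6) in duct-like and 2.97 CPM (1.99 to 4.26) in acinar cells. Neither gene had overlapping intervals between any pair of the 3 classes. Acinar Krt7 was close to the floor: 27 of 864 cells had a UMI, and fibroblasts were at 0.773 CPM (0.433 to 1.28). Its acinar interval overlapped that of immune cells at 0.736 CPM (0.152 to 2.15). Acinar Krt19 was above the 4.43 CPM (3.55 to 5.47) of fibroblasts.

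Cdh1 was at 511 CPM (476 to 546) in duct-like cells and 101 CPM (95.1 to 108) in acinar cells. In mesothelial cells it was at 5.81 CPM (3.25 to 9.59), an interval that overlapped those of immune cells at 9.57 CPM (6.81 to 13.1) and fibroblasts at 3.51 CPM (2.72 to 4.44). Epcam was at 726 CPM (685 to 768) in duct-like cells, 73.7 CPM (68.4 to 79.3) in acinar cells and 5.04 CPM (2.68 to 8.61) in mesothelial cells. Its mesothelial level again overlapped those of fibroblasts, 3.09 CPM, and immune cells, 7.85 CPM. At this depth neither gene could be told from background in mesothelial cells. Muc1 was at 196 CPM (175 to 219) in duct-like cells and 78.1 CPM (72.7 to 83.8) in acinar cells, and at 3.10 CPM (1.34 to 6.11) in mesothelial cells against 2.58 CPM in fibroblasts.

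Cldn3 was at 524 CPM (490 to 560) in duct-like cells, 60.9 CPM (56.1 to 66.0) in acinar cells and 12.8 CPM (8.80 to 18.0) in mesothelial cells. It was the 1 gene among the adhesion genes, mucin and claudins whose mesothelial interval lay above that of fibroblasts, 5.21 CPM (4.24 to 6.33). Cldn7 was at 449 CPM (417 to 482) in duct-like cells, 43.6 CPM (39.6 to 48.0) in acinar cells and 2.32 CPM (0.853 to 5.06) in mesothelial cells. Cldn4, which lies beside Cldn3, was at 107 CPM (92.0 to 124) in duct-like cells but at 0.921 CPM (0.421 to 1.75) in acinar cells, from 9 UMIs, an interval that overlaps that of immune cells at 0.736 CPM. No Cldn4 UMI was found in mesothelial cells, a count of 0 that allows up to 1.16 CPM.

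The remaining classes had few counts of most genes. Endothelial cells (210) had no UMI of Krt7 or Krt19, and 8.84 CPM of Krt8. The 8 endocrine cells had Cdh1 at 110 CPM (59.9 to 184), Krt8 at 94.0 CPM (48.6 to 164) and Cldn7 at 86.2 CPM (43.0 to 154), with no UMI of Krt19, Muc1 or Cldn4, which allows up to 23.5 CPM. Endocrine Krt7 was at 54.8 CPM (22.0 to 113), from 7 UMIs. These endocrine intervals are wide, and that of Cdh1 overlapped the acinar one and that of Krt7 the duct-like one. The 31 Schwann cells had Krt19 at 58.2 CPM (15.8 to 149), from 4 UMIs.

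To compare the classes, a gene was counted as higher when its CPM, with 10 added, was at least 2-fold that of the other class. All 10 genes were higher in duct-like than in acinar cells, where 31.2% of the 12263 genes with at least 20 UMIs were, and 0 of the 10 were lower, against 1.21%. Their median fold of (CPM + 10) was 6.75 and that of all genes was 1.65, on a scale in which enzymes were 41.5% of the acinar UMIs. With enzyme UMIs left out of the denominator, 9 of the 10 genes were higher in duct-like cells. The share over all genes was not computed on that denominator, so the 31.2% is not its background. Duct-like over acinar ratios without enzyme UMIs were 4.43 (4.15 to 4.73) for Krt8, 6.20 (5.65 to 6.81) for Epcam and 3.17 (2.89 to 3.48) for Cdh1. For Krt7 and Cldn4, whose acinar intervals overlapped those of immune cells, only the lower ends of the intervals are given, 8.53 and 37.7. The other 8 genes ranged from 1.58 to 6.48. Muc1 had the ratio of 1.58 (1.38 to 1.80) and was no longer past 2-fold.

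Against mesothelial cells, 8 of the 10 genes were higher in duct-like cells (10.2% of 11819 genes) and 2, Krt7 and Krt19, were lower (10.6%). The median fold of the 10 was 13.7 and that of all genes 1.07. The mesothelial counts of Epcam, Cdh1, Muc1 and Cldn7 were not above background, so only the lower ends of the intervals of their duct-like over mesothelial ratios are given, which were 83.9, 53.0, 31.7 and 88.2. For Cldn4, which had no mesothelial UMI, the lower end was 74.3. Krt8 and Krt18 were 4.87-fold (4.46 to 5.33) and 6.36-fold (5.65 to 7.18) higher in duct-like cells. Krt19 was 3.54-fold (3.14 to 4.01) and Krt7 2.85-fold (2.29 to 3.58) higher in mesothelial cells.

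Between mesothelial and acinar cells, 9 of the 10 genes had at least 20 UMIs, and Cldn4, with 9, was not compared. Krt7 and Krt19 were higher in mesothelial cells (2 of 9, against 29.6% of 12697 genes). Krt19 was 34.3-fold (29.6 to 40.0) higher, and 20.2-fold (17.5 to 23.6) without enzyme UMIs. For Krt7, close to the floor in acinar cells, only the lower ends of the ratio are given. They were 40.4 on all UMIs and 23.8 without enzyme UMIs. Cdh1, Epcam, Muc1, Cldn3 and Cldn7 were higher in acinar cells (5 of 9, against 3.64%). Cldn3 was 4.76-fold (3.35 to 6.99) higher, and 8.08-fold without enzyme UMIs. For Cdh1, Epcam, Muc1 and Cldn7, at background in mesothelial cells, the upper ends of the mesothelial over acinar ratios were 0.0951, 0.118, 0.0786 and 0.117 on all UMIs and 0.0561, 0.0694, 0.0464 and 0.0690 without enzyme UMIs. Krt8 and Krt18 were not past 2-fold in either direction. The mesothelial over acinar ratio of Krt8 was 1.44 (1.32 to 1.58) on all UMIs and turned to 0.851 (0.777 to 0.932) without enzyme UMIs, so the direction for Krt8 depends on the denominator. That of Krt18 went from 0.982 to 0.579 (0.513 to 0.653). Over all genes the median mesothelial over acinar fold was 1.52.

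The make-up of the keratin counts was compared as the share of each gene in the summed UMIs of the 4 keratins, a sum that holds no enzyme UMIs. Counts of 3′ ends do not grow with transcript length, but capture can differ between genes, so the shares are read between classes. Krt8 gave 52.4% (50.7 to 54.1) of the keratin UMIs in acinar cells and 52.7% (51.1 to 54.3) in duct-like cells, and Krt18 gave 40.7% and 36.3%. The match in Krt8 did not hold in cells of under 10000 UMIs, where Krt8 gave 44.9% (41.2 to 48.6) in acinar and 54.1% (48.9 to 59.4) in duct-like cells. Mesothelial cells had another mixture: Krt19 gave 55.1% (53.4 to 56.9), Krt8 20.2% (18.8 to 21.6), Krt7 14.0% (12.8 to 15.2) and Krt18 10.7% (9.63 to 11.8). Krt19 was 8.33% (7.47 to 9.25) of the keratin UMIs in duct-like cells and 6.02% (5.22 to 6.89) in acinar cells. The duct-like shares differed with the enzyme share of the cells. Krt19 gave 10.1% (8.87 to 11.4) in duct-like cells with under 5% of enzyme UMIs. In those with 5 to 20% it gave 5.66% (4.54 to 6.95), an interval that overlaps the acinar one. Krt8 gave 50.2% (48.2 to 52.3) and 56.5% (54.0 to 59.1) in these 2 groups. The type II genes together gave 53.3% in acinar, 55.3% in duct-like and 34.2% (32.6 to 35.9) in mesothelial cells. In acinar cells of under 10000 UMIs they gave 45.6% (41.9 to 49.2) and in deeper ones 55.5% (53.6 to 57.5). The acinar balance of type I and type II counts thus moved with depth. In acinar cells with Malat1 under 0.1% of UMIs they gave 44.6% (39.8 to 49.5). Acinar cells of under 10000 UMIs with more Malat1 had 48.3% (43.4 to 53.2). These intervals overlap, so no shift with Malat1 apart from depth was resolved.

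**Figure D2:**
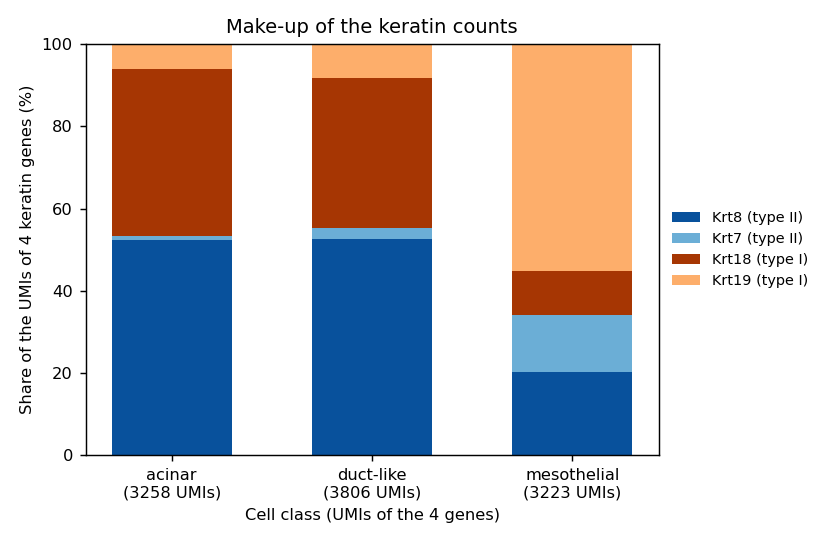
Share (%) of the summed UMIs of Krt8, Krt7, Krt18 and Krt19 that each gene gave in acinar, duct-like and mesothelial cells, with type II genes in blue and type I genes in orange. Krt8 and Krt18 fill most of the acinar and duct-like bars, and Krt19 fills 55.1% of the mesothelial bar.

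Among the 3 claudins, Cldn7 gave 41.4% (38.3 to 44.4) of their UMIs in acinar cells and 41.5% (39.2 to 43.9) in duct-like cells. In duct-like cells of under 10000 UMIs it gave 29.7% (22.6 to 37.5), against 42.7% (40.3 to 45.1) in deeper ones. Cldn4 gave 0.874% (0.400 to 1.65) in acinar and 9.93% (8.57 to 11.4) in duct-like cells, and Cldn3 gave 57.8% and 48.5%. The mesothelial cells had 39 UMIs of the 3 genes, 33 of them from Cldn3.

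Shares of cells with a UMI followed the levels, but depth differed between the classes, so each cell was also thinned to 800 UMIs. A Krt8 UMI was found in 97.3% of duct-like, 55.2% of mesothelial and 52.7% of acinar cells, and after thinning in 63.5% (51.5 to 74.4), 15.3% (12.0 to 19.2) and 11.7% (9.62 to 14.0). In fibroblasts the Krt8 shares were 2.24% and 0.485%. A Krt19 UMI was found in 87.1% of mesothelial, 70.3% of duct-like and 17.0% of acinar cells, and after thinning in 40.3% (35.5 to 45.3), 16.2% (8.67 to 26.6) and 1.74% (0.975 to 2.85). Fibroblasts had a Krt19 UMI in 1.45% of cells and in 0.485% after thinning. An Epcam UMI was found in 93.2% of duct-like, 39.0% of acinar and 2.97% of mesothelial cells, and after thinning in 36.5%, 5.90% and 0.248%. The last of these is not above the 0.641% of thinned immune cells. At least 1 of the 10 genes was seen in 94.6% of thinned duct-like, 60.4% of thinned mesothelial and 38.2% of thinned acinar cells, and in 2.68% of thinned fibroblasts. Without thinning, all 10 genes were seen together in 18 of the 74 duct-like cells and in 0 acinar or mesothelial cells.

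Spread over cells was read in those with at least 5000 UMIs, 435 acinar, 58 duct-like and 178 mesothelial. Krt8 was found in all 58 duct-like cells, from 367 to 2681 CPM with a median of 1100 CPM. In acinar cells its median was 141 CPM and its highest value 1048 CPM, so the classes overlapped in part. Krt19 had a median of 593 CPM in mesothelial cells, 105 CPM in duct-like cells and 0 in acinar cells, and 2 mesothelial cells had none. Krt7 had 68 mesothelial cells at 0, a median of 127 CPM and a highest cell at 1311 CPM. Its class level was below that of Krt19, so more cells at 0 are expected from counting alone. Whether Krt7 was more uneven beyond counting error was not tested. Epcam was found in 57 of the 58 duct-like cells, with a median of 610 CPM, while 172 of the 435 acinar cells had no UMI and their median was 61.2 CPM. For Cldn4, 33 of the 58 duct-like cells had no UMI and the highest cell was at 752 CPM. At its low level, cells without a UMI are expected from counting. Over all duct-like cells, 12.5% of those under 10000 UMIs had a Cldn4 UMI, against 52.4% of deeper ones. Whether the class is split in Cldn4 was not tested. The cell with most Cldn4 held 15.4% of the 175 Cldn4 UMIs of the class.

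**Figure D3:**
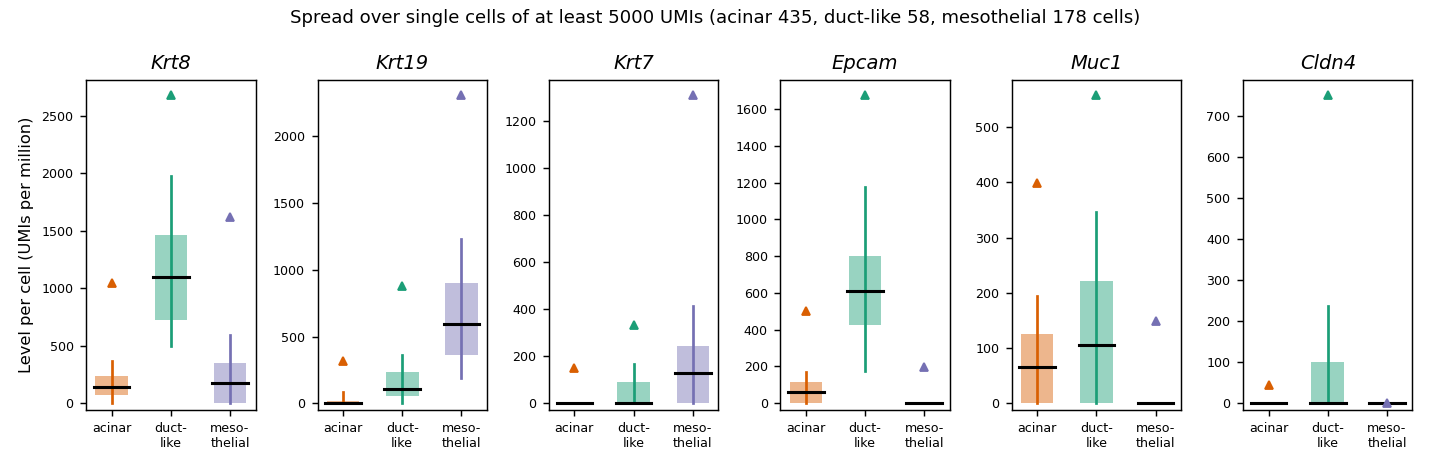
Level per cell (CPM) of 6 of the genes in cells of at least 5000 UMIs, with boxes from the 25th to the 75th percentile, lines from the 10th to the 90th, a black bar at the median and a triangle at the highest cell; each panel has its own linear axis. Krt8 and Epcam are highest in duct-like cells, Krt19 and Krt7 in mesothelial cells, and Cldn4 has a median of 0 in all 3 classes.

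Genes were also seen together in the same cells. In duct-like cells, 71 of 72 cells with Krt8 had Krt18, 67 of 69 with Cdh1 had Epcam, and all 26 with Cldn4 had Cldn3. These shares lay near those of the whole class, where Krt18 was found in 97.3%, Epcam in 93.2% and Cldn3 in 91.9% of cells. Only 2 cells lacked Krt8 and 5 lacked Cdh1, too few to compare, and 42 of the 48 without Cldn4 had Cldn3 (87.5%). Of the 29 duct-like cells with Krt7, 27 had Krt19 (93.1%), against 25 of the 45 without Krt7 (55.6%). In mesothelial cells, 176 of 190 cells with Krt7 had Krt19 (92.6%), against 82.2% of those without. In acinar cells, 57.5% (52.5 to 62.4) of the cells with Cdh1 had Epcam, against 23.1% of those without. Deeper cells show more genes of any kind, and the part of depth in these shares was not tested.

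The duct-like class was not uniform in its enzyme counts, and 65 further barcodes passed the duct and the acinar gate and no other. Duct-like cells with under 5% of enzyme UMIs (43, median 8777 UMIs) had the 10 genes at 6069 CPM (5898 to 6243), and those with 5 to 20% (31, median 24509 UMIs) at 3700 CPM (3571 to 3832). Barcodes past both gates (median 32867 UMIs, enzymes at 32.6%) had 1509 CPM (1460 to 1560). These bounds were chosen after the data were seen. From duct-like cells low in enzymes to acinar cells, Krt8 went from 1466 to 1008, 447 and 175 CPM. Cldn4 went from 170 to 48.7, 9.01 and 0.921 CPM, and Krt7 from 91.3 to 33.2, 9.87 and 2.97 CPM. Muc1 was at 243, 152, 75.9 and 78.1 CPM, so on all UMIs its level past both gates did not differ from the acinar one beyond counting error. Without enzyme UMIs, the ratio of Muc1 in barcodes past both gates to acinar cells was 0.844 (0.713 to 0.996). Enzyme UMIs lower the CPM of every other gene, and barcodes past both gates were the deepest. Scrublet marked 0 of the 65 and 1 of the 74 duct-like cells as doublets, and 4.91% of all kept barcodes. Such marks do not show that a barcode holds 1 cell. Whether barcodes past both gates hold RNA of more than 1 cell was not tested.

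**Figure D4:**
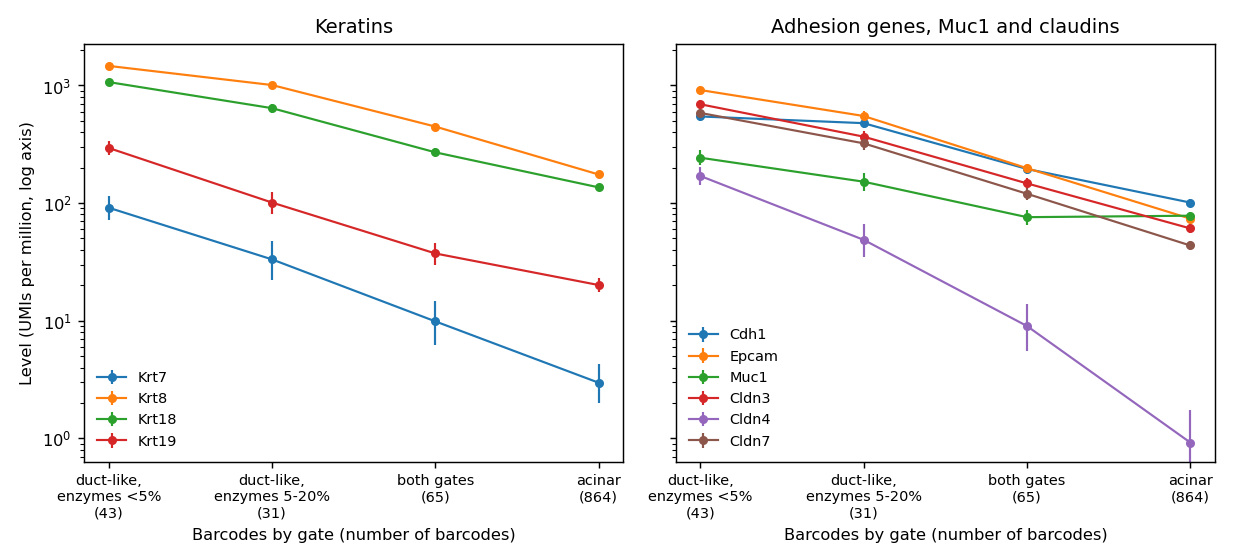
Level of each gene in CPM (log axis) in duct-like cells with under 5% and with 5 to 20% of enzyme UMIs, in barcodes past the duct and acinar gates, and in acinar cells, with keratins on the left and the other genes on the right; bars are exact 95% Poisson intervals for counting error and lines join the groups of a gene. Cldn4 runs from 170 to 0.921 CPM, the last from 9 UMIs, and Muc1 is level between the last 2 groups.

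Restricted to the 43 cells low in enzymes, duct-like Krt7 was at 91.3 CPM (71.4 to 115) and mesothelial Krt7 1.91-fold (1.49 to 2.49) higher, which is no longer past 2-fold. Krt19 was at 294 CPM (257 to 334) in these cells and remained 2.34-fold (2.04 to 2.70) higher in mesothelial cells.

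Inside the duct-like class, 2 of the 10 genes differed by at least 2-fold between deep and shallow cells. The share of all genes past 2-fold was not computed for the splits by depth and Malat1. The counts given for these splits therefore have no background beside them. Muc1 was at 211 CPM (188 to 236) in the 42 duct-like cells of at least 10000 UMIs and 65.0 CPM (32.5 to 116) in the 32 shallower ones. Cldn4 was at 116 CPM (98.8 to 134) and 35.5 CPM (13.0 to 77.2). Cldn7 was 1.72-fold (1.28 to 2.38) and Epcam 1.25-fold (1.02 to 1.55) higher in the deep cells, and the intervals of the other 6 ratios held 1. In shallower cells alone, duct-like Muc1 was therefore not above acinar Muc1, which was at 80.2 CPM (69.3 to 92.3), so the order of the classes for Muc1 rests on deep duct-like cells. Krt8 was nearly the same in the deep and shallow duct-like cells, 1238 and 1159 CPM. Acinar cells had 0 genes of the 10 past 2-fold between deep and shallow cells, and mesothelial cells had 0. Acinar cells with little of the nuclear RNA Malat1 (under 0.1% of UMIs, 361 cells) had the 10 genes at 538 CPM (504 to 574), against 739 CPM (690 to 791) in acinar cells of under 10000 UMIs with more Malat1, and 0 of the 10 genes passed 2-fold. Enzymes were 49.7% of the UMIs in the first group and 38.8% in the second, so the 2 sums differ in denominator. The first group also held 25 cells of at least 10000 UMIs. These sums were not computed without enzyme UMIs.

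Other genes of the same families and junctions were taken from lists, with the 4 genes of most UMIs as examples. Of the other 14 keratins, 3 had 20 UMIs or more between duct-like and acinar cells, of which 1 was higher and 1 lower (31.2% and 1.21% of all genes). Krt23 was at 115 CPM in duct-like cells, 3.07 CPM in acinar and 3.87 CPM in mesothelial cells. Krt20, a keratin of gut epithelium, was at 56.3 CPM in acinar, 15.3 CPM in duct-like and 0.775 CPM in mesothelial cells. Krt14, known from basal cells of stratified epithelia, was at 52.3 CPM in mesothelial cells, 0.102 CPM in acinar cells and had no UMI in duct-like cells. Krt10 was at 20.1 CPM in mesothelial cells and 32.1 CPM in fibroblasts.

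Of the other 12 claudins, 4 of 6 tested were higher in duct-like than in acinar cells (31.2% of all genes) and 0 lower (1.21%). Cldn6 was at 77.2 CPM and Cldn8 at 65.6 CPM in duct-like cells, against 15.1 and 12.6 CPM in acinar cells, and they were at 0 and 0.387 CPM in mesothelial cells. Mesothelial cells had Cldn15 at 188 CPM, with 1.84 CPM in duct-like and 0.921 CPM in acinar cells, and Cldn10 at 206 CPM, with 61.3 and 71.9 CPM. Cldn2, a claudin of leaky epithelia named after its values were seen, was at 98.1 CPM in duct-like cells and 0.307 CPM in acinar cells.

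All 12 genes of the tight junction list were tested, and 11 were higher in duct-like than in acinar cells, against 31.2% of all genes, with a median fold of 3.69 against 1.65. Cxadr, an adhesion receptor, was at 535 CPM in duct-like, 243 CPM in mesothelial and 49.7 CPM in acinar cells. F11r, a junctional adhesion molecule, and Tjp1, the scaffold ZO-1, were at 203 and 171 CPM in mesothelial cells and at 185 and 148 CPM in duct-like cells, with 5.26 and 53.9 CPM in fibroblasts. The polarity scaffold Patj was at 178, 48.8 and 46.0 CPM in duct-like, mesothelial and acinar cells. Of these 4 genes, the mesothelial level was above that of fibroblasts for each, while Cldn7 in mesothelial cells was not and Cldn4 had no UMI. Tjp1 and F11r were not particular to the compared classes, with 326 and 207 CPM in endothelial cells. Cxadr and Patj were at 11.1 and 2.95 CPM there, and Patj was at 27.5 CPM in immune cells.

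Of 11 adherens junction genes tested, 9 were higher in duct-like than in acinar cells, against 31.2% of all genes, with a median fold of 4.22 against 1.65. The catenins Ctnnb1, Ctnnd1 and Ctnna1, which link cadherins to the cytoskeleton, were at 583, 504 and 323 CPM in duct-like cells and at 259, 162 and 325 CPM in mesothelial cells. Cdh11, a cadherin of mesenchymal cells, was at 831 CPM in mesothelial cells against 329 CPM in fibroblasts, 12.2 CPM in acinar and 6.74 CPM in duct-like cells. Mesothelial cells thus had catenin and Cdh11 counts, with Cdh1 at the level of the background classes. The catenins were not particular to them. Ctnnb1, Ctnnd1 and Ctnna1 were at 199, 132 and 146 CPM in fibroblasts and at 623, 426 and 455 CPM in endothelial cells.

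In the desmosome list, 6 of 9 genes were higher in duct-like than in acinar cells (31.2% of all genes) and 6 of 9 were higher in duct-like than in mesothelial cells (10.2%). Dsg2, a desmosomal cadherin, was at 445 CPM in duct-like, 72.5 CPM in acinar and 6.97 CPM in mesothelial cells, and Dsp, which ties keratins to desmosomes, at 202, 31.3 and 19.8 CPM. Pkp4 was at 299, 72.2 and 34.9 CPM. Ppl, a plakin, was highest in mesothelial cells at 113 CPM, against 25.7 CPM in duct-like and 0.921 CPM in acinar cells.

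Among relatives of Epcam and the protease system around it, 4 of 6 tested were higher in duct-like than in acinar cells, against 31.2% of all genes. Spint2, a protease inhibitor, was at 371 CPM in duct-like, 249 CPM in acinar and 72.8 CPM in mesothelial cells, and Cd9, a tetraspanin that is also in fibroblasts at 244 CPM, was at 378, 38.7 and 263 CPM. Prss8 was at 85.8, 36.0 and 3.10 CPM and Spint1 at 47.2, 26.1 and 1.55 CPM. None of the other 8 mucins reached 20 UMIs, so Muc1 was the 1 mucin of those searched with such a count, Muc16 aside, which served as a mesothelial marker.

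Among 12 regulators of epithelial genes, 7 were higher in duct-like than in acinar cells (31.2% of all genes), with a median fold of 2.25 beside 1.65 for all genes, and 6 were higher in acinar than in mesothelial cells (3.64%). Ehf, an ETS factor, was at 430 CPM in duct-like, 13.6 CPM in acinar and 0.775 CPM in mesothelial cells. Esrp1, a splicing factor of epithelia, was at 108, 52.7 and 1.16 CPM and Klf5 at 119, 13.9 and 58.9 CPM. Of the 3 compared classes, mesothelial cells had the most Klf4, at 761 CPM, below the 1177 CPM of fibroblasts. Of 9 genes of mesenchymal cells, 6 were higher in mesothelial than in acinar cells (29.6% of all genes) and 6 of 8 higher in mesothelial than in duct-like cells (10.6%). Vim, the filament protein of mesenchymal cells, was at 1248 CPM in mesothelial cells, 143 CPM in duct-like and 50.9 CPM in acinar cells, and the matrix gene Fn1 at 1374, 52.1 and 59.2 CPM. Zeb1 and Zeb2, repressors that bind the E2-box letters marked above, were at 138 and 119 CPM in mesothelial cells, 38.6 and 20.8 CPM in duct-like cells and 22.1 and 42.2 CPM in acinar cells, and at 505 and 1024 CPM in fibroblasts. Red cells, a further gated class, had Zeb1 at 35.2 CPM, Zeb2 at 52.1 CPM and Fn1 at 54.9 CPM. Acinar and duct-like levels of these genes were near or below those values. They could not be told from free RNA in droplets.

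**Figure D5:**
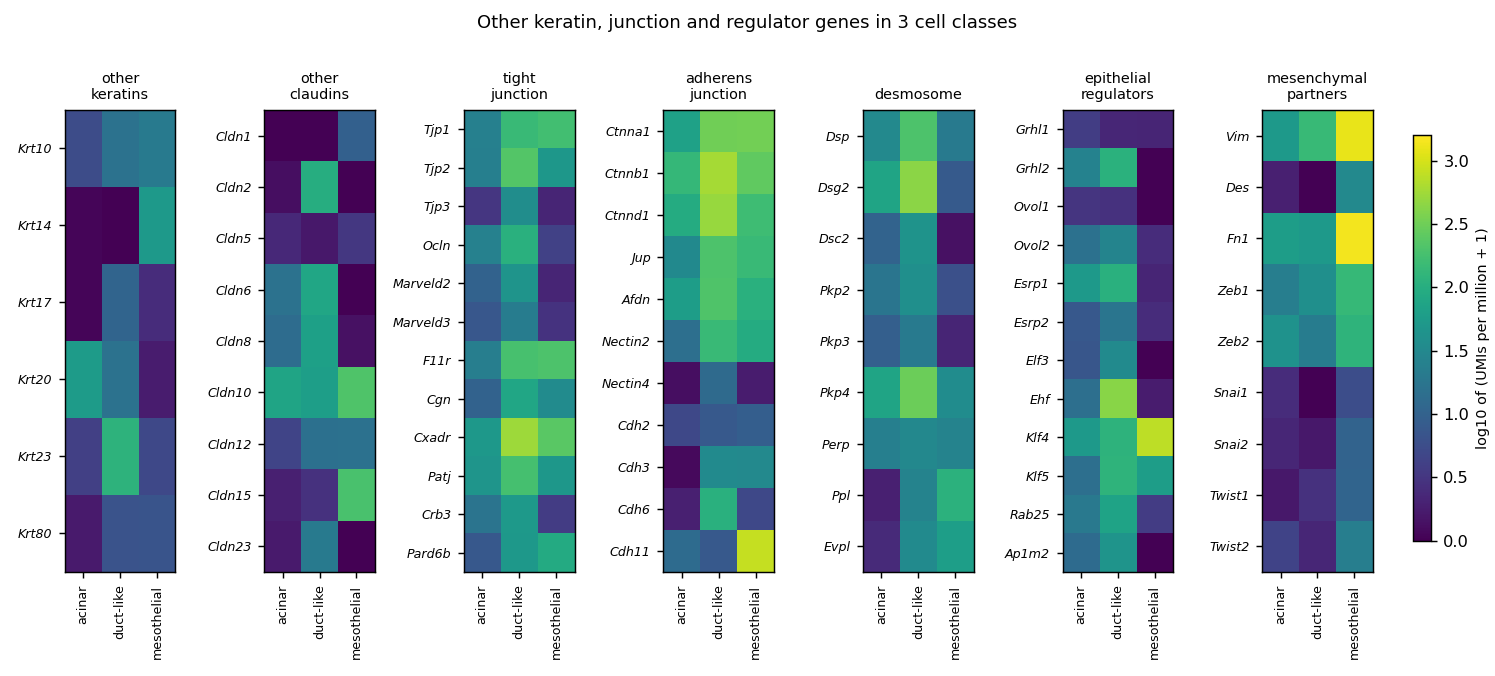
Heat maps of 7 lists of related genes (those with at least 20 UMIs over the 3 classes), coloured by log10 of the level in CPM plus 1, with 1 column each for acinar, duct-like and mesothelial cells. Most junction genes are brightest in duct-like cells, while Krt14, Cldn15, Cldn10, Cdh11, Ppl, Klf4, Vim and Fn1 are brightest in mesothelial cells.

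The genes whose levels were most like each member were read from Pearson's r of log2 (CPM + 10) over the 9 classes of at least 20 cells, which share 1 library. As a description, Krt7 was most like Cobl (r = 0.954) and Krt19 most like Tst (r = 0.963). Krt8 was most like Exph5 (0.984) and Krt18 most like Sh2d4a (0.983), which was also among the 3 nearest to Krt8. Cdh1 was nearest to Nkx2-2 (0.994), Epcam to Ap1m2 (0.997), Muc1 to 9030622O22Rik (0.997), Cldn3 to Tmprss2 (0.982), Cldn4 to Sim1 (1.000) and Cldn7 to Zfp750 (0.999). With so few classes and most at the floor, such values are set by the 2 or 3 classes in which a gene is present.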

How the data were processed

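Single-cell RNA was measured in 1 library of pooled Scap f/f pancreata. Per the labels, the authors made it with the 10x 3′ v3.1 kit and processed it with Cell Ranger 7.1.0 on mm10; the deposited values are raw UMI counts per gene and barcode, and no removal of ambient RNA was visible in them. Reads were aligned by the authors with the default settings. Kept barcodes had a UMI total between 800 and 100000 and a mitochondrial share below 15%. Classes were gated on marker panels that held none of the 10 genes. The genes and lists were chosen with earlier results of these data known. Counts were summed per class and divided by its UMIs (CPM). With 1 library there was no test; a fold of (CPM + 10) of at least 2 was used, among genes of at least 20 UMIs in the pair. Doublets were not removed in the main values. Scrublet (scanpy 1.11.5, expected rate 0.08) marked 4.91% of kept barcodes, which were left out in 1 alternative. Other alternatives changed UMI and mitochondrial limits, gates, denominator, averaging, thinning, clustering and the added constant. Scripts were tested on simulated data (Python 3.11.15, numpy 2.4.6, scipy 1.17.1). Named from each list of related genes were the 4 with most UMIs in the 3 classes, and for likeness the 3 genes of highest r among those of at least 20 UMIs.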

Additional observations from a re-analysis of the deposited data

How the results depend on the processing

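The count of the 10 genes at least 2-fold higher in duct-like than in acinar cells was 10 and stayed at 9 or 10 under 10 other settings; Muc1 was the gene lost where it was 9. With an upper limit of 10000 UMIs, the limit the study used, duct-like Muc1 was at 65.0 CPM (32.5 to 116), from 11 UMIs. Acinar Muc1 was then at 80.2 CPM (69.3 to 92.3). The intervals overlap, so under that limit the order of the classes for Muc1 was not resolved. The counts for duct-like against mesothelial cells (8) and mesothelial against acinar cells (2) were the same under those 10 settings. The share of all genes past 2-fold was not computed under any other setting. Clusters found without the 10 genes gave 163 duct-like barcodes with Krt8 at 738 CPM and Cldn4 at 46.8 CPM, below the gated 1230 and 107 CPM; 72 of the 74 gated cells and 59 of the 65 barcodes past the duct and acinar gates fell in that cluster. Restricting duct-like cells to under 5% enzymes, an alternative chosen after seeing the data, left 10 and 8 genes. Of 30 levels, 30 stayed within their interval without Scrublet doublets, 14 with the 10000 limit and 15 without enzyme UMIs. Leaving out enzyme UMIs changes only the denominator, most in acinar cells, where they were 41.5% of UMIs. The cause of the shifts under the 10000 limit was not tested. No paired analysis was possible because there was 1 library. The 74 duct-like cells and the 1 library limit these results: no value has a replicate.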
